A study of Homo sapiens with 3 samples.

Results

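The TRAF adaptor family was followed in RNA sequencing of 3 libraries from cells labelled KG1a, a human acute myeloid leukaemia line. All 7 genes, TRAF1 to TRAF7, were chosen by name, and all 7 were among the 58735 genes of the deposited tables. TRAF7 is the target of the knockdown hairpin, and the comparison asks whether the related adaptors differ from the control when it is depleted. The control is 1 library, from cells infected with a lentivirus carrying a control hairpin (shCtrl; genotype given as wild type). Both knockdown libraries, knockdown 1 and knockdown 2, came from cells infected with a TRAF7 hairpin virus (shTRAF7). The labels do not say whether the knockdown libraries carry different hairpins or come from separate cultures, and they name no time after infection, so the p-values rest on the spread among these libraries, and that spread may be technical. All 3 libraries carry the same batch label.

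TRAF proteins bind the cytoplasmic tails of TNF receptor superfamily members, or adaptors of the interleukin-1 and Toll-like receptors, and pass the signal to kinases that activate NF-kB and JNK. Most carry a RING finger, the fold of many ubiquitin ligases, and a C-terminal TRAF domain (also called MATH) that docks on receptors. TRAF1 lacks the RING finger, and TRAF7 has WD40 repeats where the others have the TRAF domain.

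Assigned reads per library ran from 16014485 to 16254461. CD34, the surface antigen by which KG1a is best known, was nearly absent, with 0, 1 and 10 reads in the control, knockdown 1 and knockdown 2, and PROM1 and FLT3 had 0 reads in all 3. Of 8 stem and progenitor surface markers, 3 had a mean of at least 1 FPKM (SPN, PTPRC and CD33; FPKM is a read count scaled to exon length and library size), and their summed level was 61.6, 54.6 and 46.4 FPKM. Of 5 erythroid markers 4 reached that mean, led by KLF1 at 56.5, 61.7 and 55.8 FPKM (sums of 79.4, 78.0 and 77.9), and of 6 stromal and epithelial markers 3 did, the keratin genes KRT8 and KRT18 and the adhesion gene EPCAM (sums of 131.7, 162.3 and 144.8). Of 5 T and NK cell markers 2 reached it, with sums of 8.93, 5.01 and 7.45 FPKM. None of 4 B cell and none of 5 mature myeloid markers did, with sums of at most 1.23 and 0.373 FPKM. The near absence of CD34 goes against the KG1a label, and the identity of the cells was not tested. The part of these markers in the results below was not tested.

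The region between TRAF7 and its head-to-head neighbour SNHG19 was chosen for display after the values were seen. The transcripts that leave it differed from the control in opposite directions, as described further on. TRAF7 is the hairpin target, and whether this region has a part in either difference was not tested. The windows span 300 bases around each RefSeq start (GRCh38.p14). TRAF7 lies on the plus strand (chr16:2155532-2155831) and SNHG19 on the minus strand (chr16:2155309-2155608), each printed 5′ to 3′ on its own strand. Capitals mark the 77 bases that the windows share, read from opposite strands.
TRAF7: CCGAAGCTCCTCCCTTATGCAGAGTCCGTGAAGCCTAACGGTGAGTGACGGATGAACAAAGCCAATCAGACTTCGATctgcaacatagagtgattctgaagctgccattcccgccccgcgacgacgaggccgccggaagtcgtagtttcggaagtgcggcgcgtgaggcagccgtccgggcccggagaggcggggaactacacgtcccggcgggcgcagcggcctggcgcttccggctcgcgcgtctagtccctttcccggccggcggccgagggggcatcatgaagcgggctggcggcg
SNHG19: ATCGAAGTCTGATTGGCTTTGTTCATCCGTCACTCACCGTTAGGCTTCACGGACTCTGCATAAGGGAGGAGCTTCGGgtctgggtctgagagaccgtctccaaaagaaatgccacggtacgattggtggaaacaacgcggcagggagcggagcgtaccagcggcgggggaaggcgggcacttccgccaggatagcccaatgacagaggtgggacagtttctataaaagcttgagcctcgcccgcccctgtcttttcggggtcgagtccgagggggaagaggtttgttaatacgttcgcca

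Searched on both strands were 4 motifs: the CCAAT box, the GC box GGGCGG, the ETS-type motif CCGGAAGT and the TATA-box motif TATAAA. The TRAF7 window holds the first 3 motifs 1 time each, with no overlap between them, and no TATA-box motif. Its CCAAT box starts at base 62, inside the shared stretch, and so is also 1 of the 3 CCAAT box matches of the SNHG19 window. SNHG19's window holds the GC box and the TATA-box motif 1 time each and no ETS-type motif. Of 35116 RefSeq windows of this length, 34.6% hold the CCAAT box, 45.0% the GC box, 4.1% the ETS-type motif and 11.5% the TATA-box motif. These matches describe the letters only.

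TRAF7 (ENSG00000131653, chromosome 16, positions 2155698 to 2178129, plus strand, GENCODE release 29 on GRCh38) was lower in both knockdown libraries, which checks the labels. The control held 46.5 FPKM of TRAF7 (exact 95% Poisson interval of the reads 45.0 to 48.1), against 15.6 for knockdown 1 (14.7 to 16.6) and 18.3 for knockdown 2 (17.4 to 19.3). Both knockdown libraries lay below the 1 control library, as for 30.8% of all genes tested, and did so beyond counting error, as for 11.7%. The knockdown libraries lay far closer to each other than to the control. In bulk RNA, fewer cells expressing a gene and less RNA per cell cannot be told apart.

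TRAF7 stood at 33.6% of the control level in knockdown 1 (31.3 to 35.9) and at 39.4% in knockdown 2 (37.0 to 42.0), intervals that cover counting error only. Knockdown 2 had 117% of the TRAF7 level of knockdown 1 (108 to 127), a gap beyond counting error. A level at least 2-fold lower in both knockdown libraries was found for 1 of the 6 measured members, TRAF7, and for 1.11% of all genes, and a level at least 2-fold higher for 0 members and 1.13% of all genes. On the log2(FPKM + 1) scale TRAF7 was lower by a fitted −1.41 ± 0.19 (SE), with a limma adjusted p of 0.274 across 12640 genes. That test called 0.0% of the genes (0 of 12640; 1161 had an unadjusted p under 0.05, or 9.19%). The 1 control and 2 knockdown libraries leave 1 residual degree of freedom. On whole reads recovered from the FPKM values, limma-voom called 0.865% of 15034 genes (0.659% lower) and TRAF7 among the lower ones (log2 fold change −1.46 ± 0.20, SE, adjusted p = 2.69e-05), with the lone control assumed to vary as the knockdown pair does. TRAF7 also passed limma among protein-coding genes only, a setting added after the data were seen (adjusted p = 0.0294 over 9897 genes). Over the alternatives, all of them limma or limma-voom fits, its adjusted p ran from 2.69e-05 to 0.649.

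TRAF7 stood high among all genes in the control, where 830 of the 12640 genes tested (6.57%) had at least its level. A level at least as far under the control in both knockdown libraries was found for 62 genes, TRAF7 included, and 6 of these had a mean of at least 5 FPKM. The other 5 were S100P, ASS1, ALDH1L2, the small RNA pseudogene RNU6-322P and the uncharacterised AP005233.2, named after their values were seen. RNU6-322P had only 20, 5 and 7 reads (intervals of 8.0 to 74.5% and 13.0 to 89.5% of the control). AP005233.2 had 58, 16 and 21 reads (16.1 to 52.8% and 21.7 to 62.9%). Whether these 2 lay as far under the control as TRAF7 is therefore not resolved. By limma's p TRAF7 ranked 15th and by limma-voom's 5th.

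TRAF4 and TRAF2 were the most abundant of the other adaptors, TRAF3 was intermediate, TRAF6 and TRAF5 were low, and TRAF1 was nearly absent. By limma 0 of the 5 measured members other than TRAF7 passed, with adjusted p-values from 0.676 to 0.964, and by limma-voom 0 passed, from 0.606 to 0.966. With 3 libraries, the standard errors of these 5 genes lay between 0.18 and 0.23 on the log2 scale. Changes of that size were not detectable, and far larger ones could be missed. TRAF7 itself, at −1.41 ± 0.19 (SE), did not pass limma over all genes tested (adjusted p = 0.274). Among the 6 measured members, 3 were higher in both knockdown libraries than in the control and 2 lower, where 42.5% of all genes tested were higher in both and 30.8% lower. Both comparisons share the control library.

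**Figure D1:**
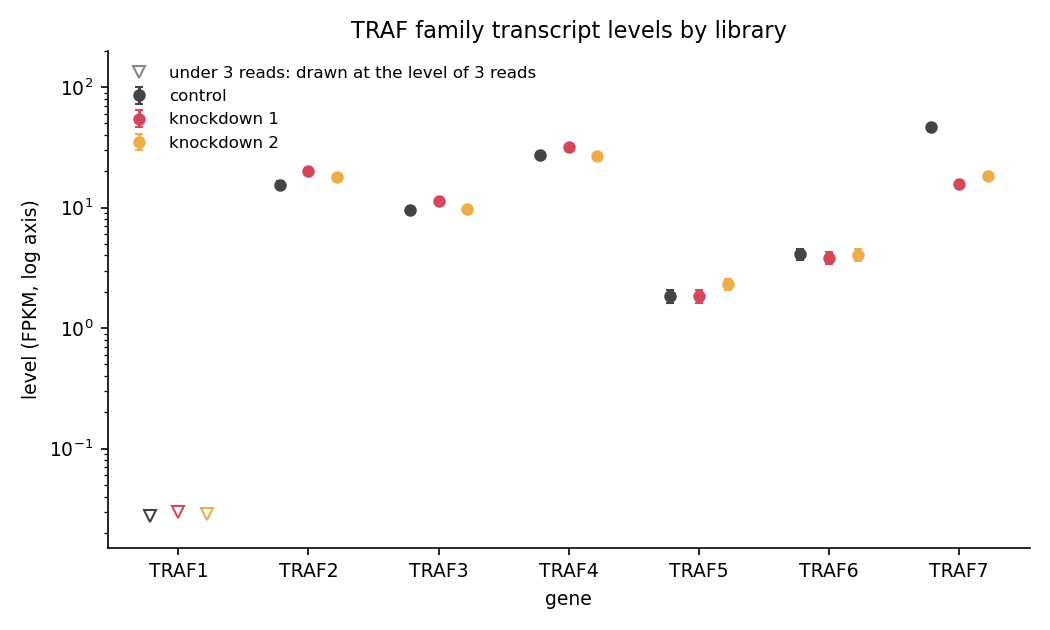
Levels of the 7 TRAF genes in FPKM (log axis), 1 point per library, with exact 95% Poisson intervals of the reads as bars. For TRAF7 the control point (46.5 FPKM) stands above both knockdown points (15.6 and 18.3), the levels of the other genes shift by far less, and TRAF1 had under 3 reads in each library (open triangles, drawn at the level that 3 reads would give).

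TRAF2 (chromosome 9, positions 136881912 to 136926607, plus strand) is the adaptor of the TNF receptor 1 and 2 complexes and brings in the ligases BIRC2 and BIRC3. The control held 15.5 FPKM of TRAF2 (14.5 to 16.5), against 20.3 for knockdown 1 (19.1 to 21.5) and 17.9 for knockdown 2 (16.9 to 19.1). Both knockdown libraries lay above the control, at 131% (120 to 143) and 116% (106 to 127) of it, and TRAF2 was the only member besides TRAF7 that lay on 1 side of the control beyond counting error in both. Of all genes tested, 21.1% were higher and 11.7% lower by the same rule. The fitted log2 fold change was 0.28 ± 0.18 (SE; limma adjusted p = 0.676), and 17.6% of the genes tested had at least that value. Knockdown 2 was at 88.6% of knockdown 1 (81.4 to 96.4), a gap beyond counting error, as for 46.8% of all genes tested. When the libraries were scaled to all assigned reads, TRAF2 stayed higher in both, at 119% and 110% of the control, with a fitted log2 fold change of 0.18, and under quantile normalization that value was 0.17.

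TRAF3 (chromosome 14, positions 102777476 to 102911500, plus strand), which restrains the kinase MAP3K14 and takes part in interferon induction, was at 9.63, 11.3 and 9.70 FPKM in the control, knockdown 1 and knockdown 2. Knockdown 1 was high, at 117% of the control (109 to 126), and knockdown 2 lay at 101% (93.3 to 109). TRAF4 (chromosome 17, positions 28743984 to 28750958, plus strand), known for roles in development and in epithelial tumours, gave the same picture at a higher level, with 27.5, 31.8 and 26.5 FPKM. Its knockdown libraries stood on either side of the control, at 116% (109 to 123) and 96.5% (90.7 to 103). On the log2 scale TRAF3 had a fitted difference of 0.11 ± 0.19 (SE) and TRAF4 of 0.076 ± 0.19. That of TRAF3 was 0.012 when scaled to all assigned reads and 0.061 under median-of-ratios rescaling, and that of TRAF4 changed sign under quantile normalization (−0.091) and when scaled to all assigned reads (−0.026). In that last scaling, knockdown 1 was at 107% of the control for TRAF3 (98.8 to 115) and 105% for TRAF4 (99.1 to 112), within counting error. Knockdown 2 was at 95.7% for TRAF3 (88.6 to 103) and 91.6% for TRAF4 (86.1 to 97.4). For both genes the gap between the knockdown libraries was as large as that between knockdown 1 and the control or nearly so, with knockdown 2 at 86.1% and 83.5% of knockdown 1. TRAF4 overlaps 2 annotated antisense genes, with 8, 4 and 4 reads in 1 and 0 in the other, and the sources used here do not say whether counting used strand.

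TRAF5 (chromosome 1, positions 211326615 to 211374946, plus strand), a close relative of TRAF3, was at 1.83, 1.84 and 2.31 FPKM, on 279, 258 and 339 reads. Knockdown 2 was the high library, at 126% of the control (107 to 148), while knockdown 1 was at 100% (84.4 to 119). TRAF6 (chromosome 11, positions 36487027 to 36510272, minus strand), the ligase that interleukin-1 and Toll-like receptors use, was at 4.10, 3.84 and 4.05 FPKM. All 3 of its Poisson intervals overlapped, and the knockdown libraries were at 93.7% (79.8 to 110) and 98.9% (84.6 to 116) of the control. The fitted differences were 0.11 ± 0.23 (SE) for TRAF5 and −0.044 ± 0.18 for TRAF6 on the log2 scale, and the sign for TRAF6 changed under quantile normalization (0.00036). When scaled to all assigned reads they were 0.045 and −0.13. TRAF3 and TRAF5 counted as higher in both libraries with 1 library each at 100.8% and 100.3% of the control. When scaled to all assigned reads 1 of the 6 measured members, TRAF2, was higher in both and 2, TRAF6 and TRAF7, lower, and those counts were 1 and 2 under median-of-ratios rescaling and 2 and 2 under quantile normalization.

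TRAF1 (chromosome 9, positions 120902393 to 120929173, minus strand), an NF-kB target gene in lymphoid cells, had 0, 2 and 0 reads. A count of 0 allows up to 0.0276 FPKM in the control and 0.0286 in knockdown 2, at 3 reads. TRAF1 was the 1 member of 7 below the filter of 1 FPKM, and no fold is given for it.

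**Figure D2:**
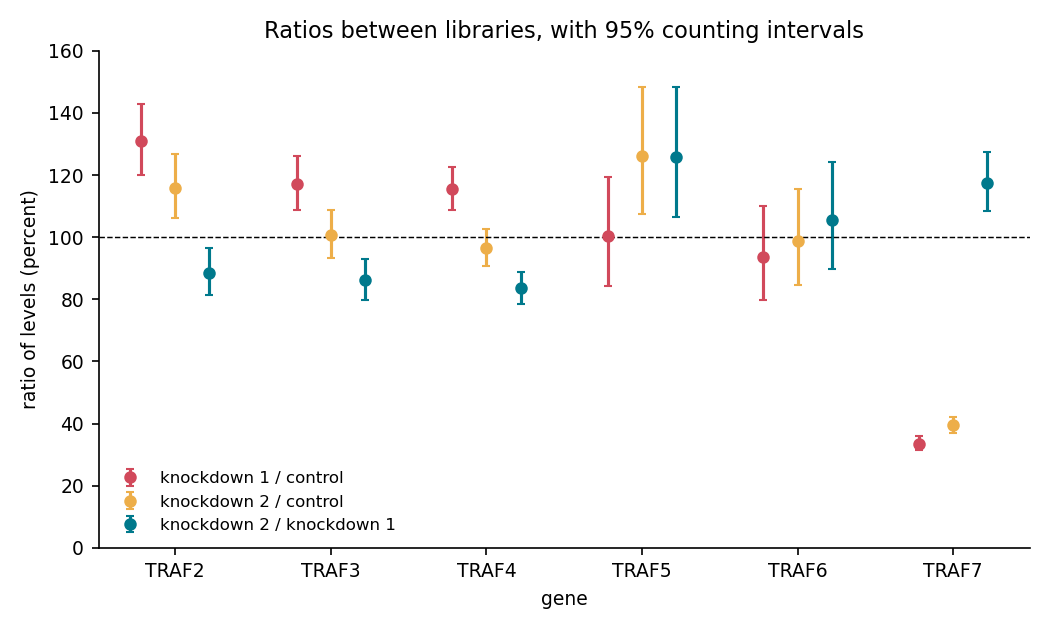
Ratio of levels between libraries in percent for the 6 measured TRAF genes, with 95% intervals that cover counting error only. The red and yellow points compare each knockdown library with the control and the blue points compare the knockdown libraries with each other. TRAF7 lies at 33.6% and 39.4% of the control and TRAF2 above 100% in both, while for TRAF3, TRAF4 and TRAF5 1 of the 2 intervals includes 100%, and for TRAF6 both do.

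The order of the family by FPKM, a level per exon length, changed at the top. In the control TRAF7 was the most abundant member, followed by TRAF4, TRAF2, TRAF3, TRAF6, TRAF5 and TRAF1. In both knockdown libraries TRAF4 led, and TRAF7 stood behind TRAF2 in knockdown 1 (15.6 against 20.3 FPKM). In knockdown 2, TRAF7 and TRAF2 had overlapping intervals (17.4 to 19.3 and 16.9 to 19.1 FPKM), so their order there is not resolved. The lower places, TRAF3, TRAF6, TRAF5 and TRAF1, were the same in all 3 libraries, and those neighbours differed by more than their spread over the libraries.

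The levels of the 7 genes summed to 105.1, 84.6 and 78.9 FPKM in the control, knockdown 1 and knockdown 2. Of these sums TRAF7 made up 44.3%, 18.5% and 23.2%. TRAF1 to TRAF6 together came to 58.5, 69.0 and 60.5 FPKM, so that the knockdown libraries were at 118% and 103% of the control. When scaled to all assigned reads these became 107% and 98.2%, so the direction for knockdown 2 turned. The sum with TRAF7 was below the control in both libraries under either scaling. Relative to TRAF7, the level of TRAF2 was 33.3%, 130% and 97.9% in the same order, and that of TRAF4 was 59.1%, 203% and 145%.

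The genes beside TRAF7 differed from the control in both directions. Of all genes tested, 42.5% were higher in both knockdown libraries and 30.8% lower, or 21.1% and 11.7% beyond counting error. The directions given here are read against those shares. By rule, the 3 nearest measured protein-coding genes on each side were taken, and by limma and by limma-voom 0 of these 6 passed. Of the 6, only MLST8 was higher in both knockdown libraries. RAB26, PKD1, CASKIN1 and BRICD5 were lower in both, and TSC2 lay on either side of the control. RAB26, a small GTPase gene that ends 1533 bases before TRAF7 begins, was at 4.76, 2.17 and 3.56 FPKM, lower in both knockdown libraries (45.6%, interval 34.9 to 59.1, and 74.8%, interval 59.9 to 93.1, of the control). SNHG19, a small nucleolar RNA host gene on the other strand whose start lies 340 bases from that of TRAF7, was higher in both, at 128.2, 178.7 and 163.6 FPKM (log2 fold change 0.41 ± 0.14, SE; limma adjusted p = 0.497). SNHG19 is outside the rule and was added after its values were seen. On the other side CASKIN1, a scaffold protein gene on the opposite strand, overlaps the last 950 bases of TRAF7, so reads there cannot be told apart without strand. CASKIN1 was at 3.85, 3.73 and 2.35 FPKM, with knockdown 2 low and knockdown 1 near the control.

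Farther out, MLST8, a subunit of the mTOR complexes, was at 21.0, 30.0 and 26.9 FPKM, higher in both knockdown libraries (143%, interval 134 to 153, and 128%, interval 120 to 137). BRICD5 was at 2.08, 1.67 and 1.18 FPKM on 73, 54 and 40 reads. PKD1, the polycystin-1 gene, was at 13.4, 10.2 and 9.95 FPKM, lower in both, and has near-identical pseudogene copies on the same chromosome, so its reads may be shared. TSC2, which encodes the mTOR inhibitor tuberin, was at 6.99, 7.03 and 6.06 FPKM. In both knockdown libraries TRAF7 stood at a lower percentage of the control than any of these 7 genes.

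**Figure D3:**
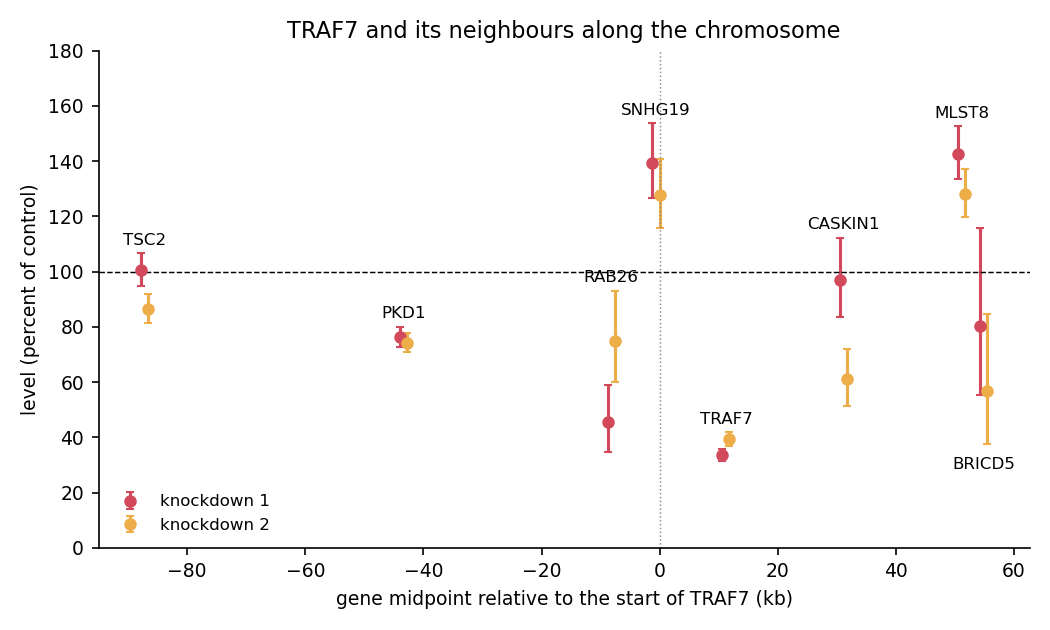
Level in percent of the control for TRAF7, its 6 nearest measured protein-coding neighbours and SNHG19, against the distance of each gene's midpoint from the start of TRAF7 in kilobases. Bars are 95% intervals of counting error. SNHG19 and MLST8 lie above 100% in both knockdown libraries. RAB26, PKD1, CASKIN1 and BRICD5 lie below it in both, RAB26 and PKD1 beyond counting error. TSC2 lies on either side, and TRAF7 is lowest at 33.6% and 39.4%.

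The protein-coding genes whose pattern over the 3 libraries lay nearest to that of TRAF7 were MMP17, PHGDH, TSPAN32, FAM19A2 and HIST1H4K. Nearness was the Euclidean distance between the pairs of log2(FPKM + 1) differences from the control, among 6417 genes that averaged 5 FPKM or more, so these genes were chosen for their low values in the knockdown libraries and their values are a description. The distances ran from 0.37 for MMP17 to 0.56 for HIST1H4K, where TRAF7 itself had differences of −1.52 and −1.30. MMP17, a membrane-anchored metalloproteinase gene, was at 8.85, 2.78 and 4.07 FPKM, and PHGDH, the first enzyme of serine synthesis, at 61.2, 18.0 and 31.6. FAM19A2, a secreted chemokine-like protein gene, was at 15.4, 4.38 and 8.67 FPKM. In these 3, knockdown 1 was lower than knockdown 2 by more than for TRAF7. The tetraspanin gene TSPAN32 was at 11.8, 4.90 and 5.25 FPKM and the histone H4 gene HIST1H4K, one of many near-identical copies, at 15.2, 7.00 and 6.90, with the knockdown libraries close to each other.

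**Figure D4:**
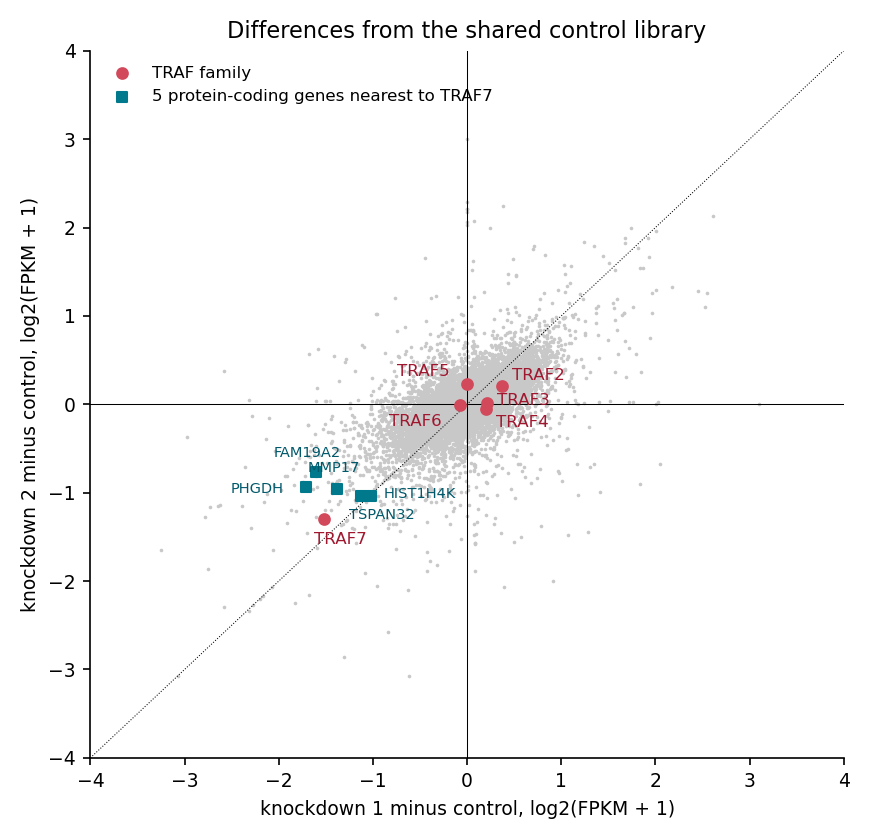
Difference of each knockdown library from the control on the log2(FPKM + 1) scale for 12640 genes (grey), knockdown 1 across and knockdown 2 upward; the dotted line marks equal differences, and both axes share the control. TRAF7 (−1.52 and −1.30) lies at the edge of the cloud beside the 5 genes nearest to it (squares), while TRAF2 to TRAF6 lie inside it.

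Genes that work with TRAF proteins were then described by lists, ordered from receptor to target. By limma 0 of 106 distinct measured genes of these lists passed. An unadjusted limma p under 0.05 was found for 6 of the 106, a smaller share than the 9.19% of all genes tested. By limma-voom 1 of 114 passed, TNFAIP2, a share of 0.877% that is near the 0.865% called over all genes. Over all genes tested the log2 differences had medians of 0.056 for knockdown 1 and 0.030 for knockdown 2, and directions below are read against that.

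Of 29 TNF receptor superfamily genes, 10 averaged 1 FPKM or more, and 5 of them were higher in both knockdown libraries and 3 lower, with a median log2 fold change of 0.14 (4 and 3, and 0.043, when scaled to all assigned reads). The TNF receptor genes TNFRSF1A (8.89, 13.0 and 11.4 FPKM) and TNFRSF1B (10.4, 13.4 and 13.4), whose complexes contain TRAF2, were higher in both. TNFRSF10B, a receptor for the death ligand TRAIL, was at 11.1, 6.84 and 9.07 FPKM and TNFRSF14, the receptor HVEM, at 1.59, 1.03 and 0.732, lower in both. Their limma adjusted p-values lay between 0.565 and 0.650. Of 18 ligand genes 3 were measured, 1 higher in both and 1 lower, which became 0 and 2 when scaled to all assigned reads. CD70 was at 3.56, 1.43 and 2.41 FPKM, TNFSF9 (4-1BB ligand) at 29.8, 31.9 and 30.4 and TNFSF13B (BAFF) at 1.05, 1.20 and 0.764, and TNF itself had 0 reads in all 3 libraries.

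Of 8 partners of TRAF2 in receptor complexes 7 were measured, 2 higher in both libraries and 3 lower (median log2 fold change −0.040; 2 and 4, and −0.14, when scaled to all assigned reads). The death domain adaptor genes FADD and TRADD stood on opposite sides of the control, FADD at 3.86, 5.30 and 5.68 FPKM and TRADD at 12.6, 10.1 and 10.4. TANK was at 6.43, 4.84 and 6.15 FPKM, and the initiator caspase gene CASP8 at 2.82, 2.70 and 1.98.

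In the interleukin-1 and Toll-like receptor branch to TRAF6, 12 of 13 genes were measured, 3 higher in both and 4 lower, with a median of 0.016 that was −0.062 when scaled to all assigned reads. Over all 13 genes the summed level was 183.1, 208.2 and 183.7 FPKM. In 2 of the 4 genes with the lowest p, IRAK4 and PELI1, both libraries were lower beyond counting error, and all 4 were lower in both. These were the kinase gene IRAK4 at 6.28, 3.90 and 5.30 FPKM, the adaptor genes TIRAP at 2.36, 1.57 and 1.83 and MYD88 at 10.2, 8.55 and 9.13, and the ligase gene PELI1 at 4.88, 3.93 and 4.13 (limma adjusted p from 0.630 to 0.776).

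In the TBK1 and interferon branch, in which TRAF3 acts, all 11 genes were measured. Of these, 7 were lower in both libraries and 1 was higher, where 30.8% of all genes tested were lower and 42.5% higher. The median log2 difference was −0.19 for knockdown 1 and −0.29 for knockdown 2. When scaled to all assigned reads 9 were lower and 1 higher (median log2 fold change −0.26). Under quantile normalization 6 were lower and 0 higher (−0.14). TMEM173, which encodes the DNA-signalling adaptor STING, was at 24.1, 14.1 and 16.5 FPKM, and OPTN, the TBK1-binding autophagy receptor optineurin, at 7.05, 4.39 and 4.38. The RNA sensor gene IFIH1 was at 1.66, 0.868 and 1.06 FPKM and the mitochondrial adaptor gene MAVS at 12.7, 10.7 and 10.2. For these 4 genes of 11 the control was above both knockdown libraries beyond counting error, against 11.7% of all genes tested. The difference between those shares was not tested. The limma adjusted p was 0.469 for TMEM173 and OPTN (log2 fold changes −0.62 ± 0.19 and −0.58 ± 0.17, SE), and by limma-voom it was 0.116 and 0.145.

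Of 18 TAK1, IKK and JNK pathway genes 16 were measured, 8 higher in both libraries and 4 lower, a split that became 4 and 7 when scaled to all assigned reads. TAB2, which links TAK1 to ubiquitin chains, was at 9.14, 7.25 and 7.45 FPKM, and the IKK alpha gene CHUK at 5.68, 7.05 and 6.50. The JNK kinase gene MAP2K7 was at 16.5, 20.3 and 17.8 FPKM and the JNK1 gene MAPK8 at 4.18, 4.86 and 4.65.

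Among 21 ubiquitin enzymes of TRAF signalling 20 were measured, 11 higher in both libraries and 6 lower (median log2 fold change 0.17, or 0.087 when scaled to all assigned reads and 0.066 under quantile normalization). UBE2N, the conjugating enzyme with which TRAF6 builds K63-linked chains, was at 19.4, 26.2 and 24.5 FPKM, and its cofactor UBE2V2 at 9.55, 14.2 and 12.8, both above the control in both libraries. RBCK1 and SHARPIN, which encode HOIL-1 and SHARPIN of the linear chain ligase LUBAC, were lower in both, at 21.0, 10.8 and 14.9 and at 25.9, 21.2 and 20.6 FPKM. RBCK1 had the largest fitted difference of this list (log2 fold change −0.68 ± 0.23, SE; limma adjusted p = 0.495, limma-voom adjusted p = 0.0914).

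Of 8 genes whose proteins have been tied to TRAF7, 7 were measured, with 3 higher in both and 3 lower (1 and 3 when scaled to all assigned reads) and median log2 differences of −0.19 and 0.049. MAP3K3, which encodes the kinase MEKK3 that TRAF7 binds, was at 4.62, 5.73 and 5.04 FPKM. CFLAR, the gene of the caspase-8 regulator c-FLIP, was at 5.25, 3.86 and 4.27 FPKM and was the only 1 of the 7 outside the control beyond counting error in both libraries, where 11.7% of all genes tested were lower and 21.1% higher by that rule, so the count is no result about these partners. MYB, whose protein TRAF7 can modify with SUMO, was at 35.3, 29.2 and 37.8 FPKM. RELA was at 16.3, 18.7 and 16.9 FPKM, IKBKG at 4.31, 5.13 and 4.50 and KLF4 at 1.55, 1.11 and 1.53. IKBKG has a near-identical pseudogene copy, so its reads may be shared. ROBO4 had 0 reads in all 3 libraries.

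Among 6 genes named for interaction with or likeness to TRAFs, 5 were measured, 2 higher in both and 2 lower. TRAIP, a RING ligase of DNA replication, was at 6.14, 8.21 and 7.84 FPKM, TRAF3IP1 at 2.33, 3.27 and 2.78, and TRAF3IP2, the interleukin-17 receptor adaptor, at 2.67, 1.77 and 2.51. Of 6 genes with a MATH domain outside the family, 4 were measured, 2 higher in both and 0 lower, which became 0 and 1 when scaled to all assigned reads. USP7 was at 20.2, 24.5 and 20.3 FPKM, SPOP at 6.57, 6.97 and 8.57, TRIM37 at 6.32, 7.35 and 5.73, and SPOPL at 1.96, 1.86 and 1.99.

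Of 18 NF-kB feedback and target genes 14 were measured, with 4 higher in both and 7 lower, where 42.5% of all genes tested were higher and 30.8% lower. The median log2 differences were −0.077 and 0.0014, and the median log2 fold change was −0.058. When scaled to all assigned reads the counts were 4 and 8 (median −0.13), and under quantile normalization 5 and 7 (0.00037). TNFAIP2, a TNF-induced gene, was at 12.6, 5.85 and 7.997 FPKM and fell by limma-voom (log2 fold change −0.88 ± 0.22, SE; adjusted p = 0.0356), 1 call among the 114 listed genes, at the share over all genes. By limma it did not pass (adjusted p = 0.447). CXCL8, the interleukin-8 gene, was at 10.8, 7.40 and 8.44 FPKM, lower in both. NFKBIA, the inhibitor that NF-kB induces against itself, was at 8.19, 11.7 and 11.7 FPKM and IER3 at 3.63, 5.26 and 4.90, higher in both (limma adjusted p = 0.526 and 0.566).

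**Figure D5:**
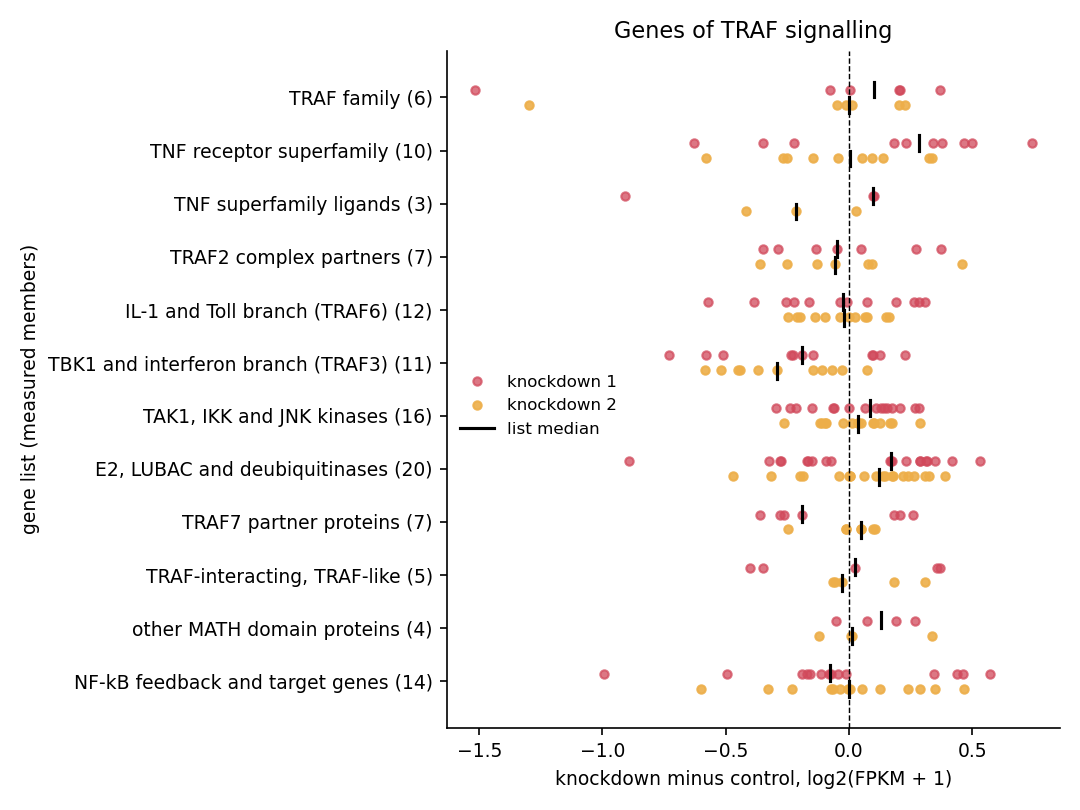
Difference of each knockdown library from the control on the log2(FPKM + 1) scale for the measured members of each list (number in brackets), 1 point per gene and library, with list medians as black bars. TRAF7 is the pair of points at −1.52 and −1.30, and the medians of the TBK1 and interferon list lie at −0.19 and −0.29 where those of all genes tested lie at 0.056 and 0.030.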

How the data were processed

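The authors deposited 1 FPKM value per Ensembl gene for each of 3 libraries (file headers). Per the submitters' processing notes, BWA, Bowtie and hg19 were used; no source used here names the counting tool. All 58735 identifiers matched GENCODE release 29, and FPKM times its exon length gave whole multiples of 1 read for 100% of values above 0 (within 0.05 of a read), so reads were recovered. Release 29 is on GRCh38 while the notes name hg19, and the build used for alignment is not settled. The implied divisors, relative to the geometric mean total, were 1.0446, 0.9629 and 1.0061 (control, knockdown 1, knockdown 2), equal to median-of-ratios factors.

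Genes averaging 1 FPKM or more were tested on log2(FPKM + 1) by limma 3.58.1 (R 4.3.3, trend on mean level), with Benjamini-Hochberg adjustment at 0.05. Fold changes on that scale understate the change of low genes. limma-voom ran on genes with a mean of at least 10 reads, and both were tested on simulated data. Poisson and ratio intervals (exact, Clopper-Pearson for ratios) are 95% and cover counting error only. Named genes were the 7 members, the 3 nearest measured protein-coding genes on each side of TRAF7, the 5 nearest patterns, 4 genes of lowest p per list, and all measured TRAF7 partners, of which 1 is not reported here. The members and lists were chosen with earlier results of these data known. Alternatives were pseudocounts of 0.1, 0.5 and 5, no filter, a minimum mean of 5 FPKM, 3 other scalings, no trend, protein-coding genes only and each knockdown library alone; the restriction to protein-coding genes and the scaling to assigned reads were added after the data were seen.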

Additional observations from a re-analysis of the deposited data

How the results depend on the processing

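TRAF7 was lower under each of the 11 alternative fits, with log2 fold changes from −1.57 (quantile normalization) to −1.23 (pseudocount of 5), and with 1 knockdown library left out it was −1.30 and −1.52, values with no test. It passed the adjusted threshold in limma-voom (−1.46) and among protein-coding genes (−1.41), but not with a minimum mean of 5 FPKM, where still fewer genes were tested (limma adjusted p = 0.0526); the cause was not tested. For TRAF1 to TRAF6, 0 genes passed in each of these fits. Of the listed genes, 1 passed, in limma-voom (TNFAIP2). Over all genes, limma called 3 with a minimum mean of 5 FPKM and 13 when restricted to protein-coding genes, limma-voom called 130, and the other fits 0. Signs of small differences changed with scaling, where the cause was not tested. Under quantile normalization the log2 fold change was −0.091 for TRAF4, 0.00036 for TRAF6, −0.12 for TNFSF9, 0.036 for TNFSF13B, −0.0049 for RELA and 0.056 for SPOPL. Scaled to all assigned reads it was −0.026 for TRAF4, −0.039 for TNFSF9 and −0.057 for TRIM37, and TRIM37 was at −0.011 under median-of-ratios rescaling. Leaving out 1 knockdown library leaves no residual degrees of freedom, so no counts of calls were made there, and the lone control could not be left out. No paired analysis was possible because the single control shares fewer than 2 replicate numbers with the knockdown libraries.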
